A study of Mus musculus with 12 samples.

Results

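The 39 genes described here encode core proteins of autophagy and mitophagy, and they were followed through 7 steps of the pathway in livers of alcohol-fed and pair-fed mice. They were taken by gene symbol (GENCODE release M21) from the 54232 Ensembl gene IDs of the count table, and all 39 had enough counts to be tested. Whole liver RNA was sequenced from mice fed to develop alcohol-associated steatohepatitis (ASH), with 5 pair-fed (PF) and 7 alcohol-fed (AF) livers, to ask which transcripts differ with alcohol. All animals were male C57BL6/J mice, with an age label of 8 weeks. PF mice received an isocaloric high-fat liquid diet for 8 weeks. AF mice received the high-fat liquid diet with alcohol, raised to 27 g/kg/day in the course of the 8 weeks, and a weekly alcohol binge of 5 g/kg that started after the first week. The study's methods describe delivery of the liquid diet into the stomach, a solid Western diet eaten beside it, and collection of the livers on the day after the last binge. No gene was altered in these mice.

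Autophagy wraps cytoplasm, protein aggregates or organelles in a double membrane and delivers them to the lysosome for breakdown. The ULK kinase complex starts the process, a class III phosphatidylinositol 3-kinase marks the membrane, lipid transfer proteins expand it, and a ubiquitin-like conjugation system attaches proteins of the Atg8 family, which bind the receptors that hold the cargo. In hepatocytes the pathway also degrades lipid droplets and damaged mitochondria (mitophagy), and a change in mRNA of these genes does not by itself measure how much material reaches the lysosome.

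Of the 15 members whose AF and PF levels differed, Atg14, Atg3, Atg12 and Fundc1 differed under every processing alternative that was run. Start regions of Atg14, Atg3 and Fundc1 are shown for this reason, and the table used here had no entry for Atg12. Each sequence runs 5′ to 3′ on the strand of the gene, from 100 bases before to 20 bases after a RefSeq transcript start (GRCm38.p6). Capitals mark the letters CACGTG, an E-box core that transcription factors of the TFEB family can read. The letters alone do not identify a factor. In the order shown, the sequences lie at chr14:47568415-47568534 (minus strand), chr16:45158729-45158848 (plus strand) and chrX:17571988-17572107 (minus strand).
Atg14: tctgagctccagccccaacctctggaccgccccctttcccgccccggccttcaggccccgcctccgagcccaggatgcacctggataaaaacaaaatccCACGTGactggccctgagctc
Atg3: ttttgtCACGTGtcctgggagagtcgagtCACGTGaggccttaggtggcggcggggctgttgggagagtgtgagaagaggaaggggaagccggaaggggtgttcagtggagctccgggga
Fundc1: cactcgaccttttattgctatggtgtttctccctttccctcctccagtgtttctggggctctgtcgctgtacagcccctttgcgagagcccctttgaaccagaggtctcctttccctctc

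The E-box core spans the RefSeq transcript start used for Atg14, occurs at 2 places in the start region of Atg3 and is not in the stretch shown for Fundc1. The stretch shown for Atg14 lies inside the annotated limits of the gene (47540893 to 47570649), not at its outer end. Start regions of 32 of the 39 members were in the RefSeq table, as 37 windows of 250 bases before to 50 bases after a start. CACGTG, searched on both strands, was in 6 of the 37 windows (16.2%), those of Atg14, Atg3, Atg5, Atg7, Bnip3 and Rubcn, against 7.15% of all 32851 windows of this length. Of these 6 genes, Atg14 and Atg3 were lower in AF livers and the other 4 did not pass the test. The letters TGACNNNGC, a core of the antioxidant response element, were in 4 member windows (10.8%, against 12.4% of all windows), those of Atg13, Map1lc3b, Tax1bp1 and Ulk2. The extended CLEAR palindrome, which contains the E-box core, the FOXO core GTAAACA and the amino acid response core TGATGNAA were in no member window and in 0.326%, 3.65% and 3.97% of all windows. These are matches of letters, and binding of a factor was not measured.

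In the AF livers 13 of the 39 members were lower (33.3%) and 2 were higher (5.13%) than in the PF livers by edgeR's quasi-likelihood test at an adjusted p under 0.05, which corrects for all 14168 genes tested. Among all genes tested, 17.8% were lower and 22.0% were higher, or 39.8% in either direction. The median log2 fold change, AF over PF, was -0.14 over the members and 0.04 over all genes, and 64.1% of members against 46.8% of all genes lay below 0. Every AF liver was below every PF liver for 5 members, Ulk2, Atg14, Atg2b, Atg9a and Atg4a, and every AF liver was above every PF liver for Atg12. Over all genes, 9.49% showed the former and 8.2% the latter. These comparisons used levels scaled with TMM factors (described below) and were not repeated with library totals. The lower members stood in 6 of the 7 steps, while the Atg8 family had none.

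**Figure D1:**
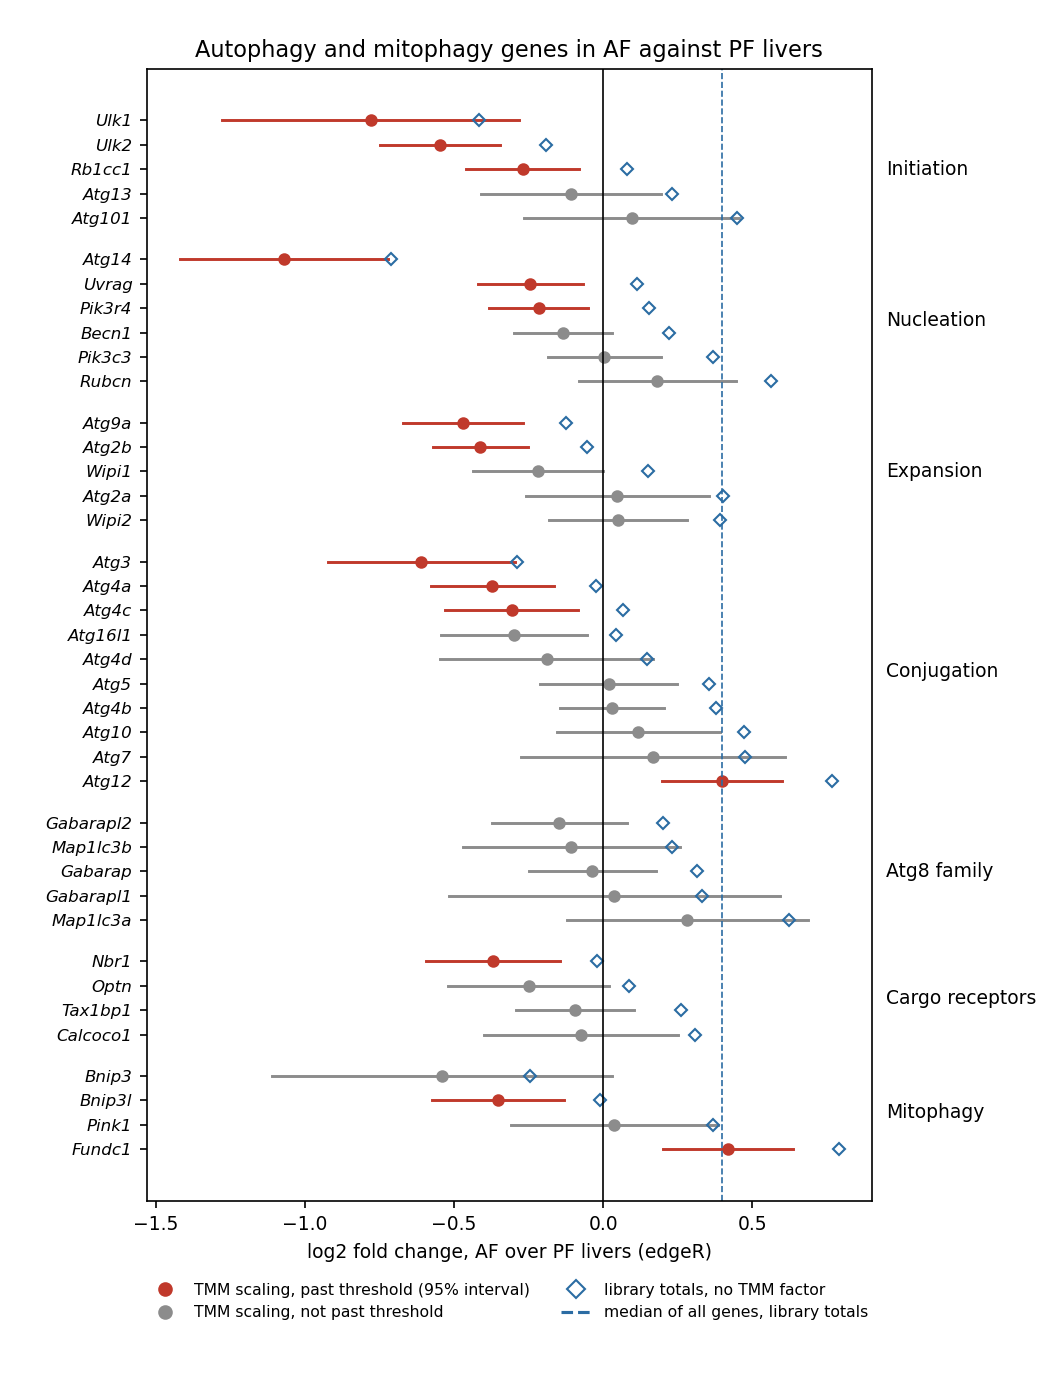
Log2 fold change of each of the 39 members (AF over PF, x axis) with its 95% confidence interval, grouped by step of the pathway (y axis). Red points passed the threshold with TMM factors, grey points did not, and open diamonds and the dashed line give each member and the median of all genes (0.40) with library totals. Atg14 lies farthest to the left at -1.07, and Fundc1 (0.42) and Atg12 (0.40) are the 2 past the threshold on the right.

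Levels are given as CPM (read counts relative to the size of the library), scaled with TMM factors, which set the typical gene to an equal level across libraries. These factors were 0.832 to 0.901 in PF and 0.880 to 1.36 in AF livers, so the scaling bears on each direction below. With plain library totals, the median log2 fold change of all genes moved from 0.04 to 0.40 and that of the members from -0.14 to 0.22, and 45.6% of all genes were higher and 6.62% lower. Of the members, 14 were then higher and 2 were lower, and Atg14, Atg3, Atg12 and Fundc1 were the 4 of 15 that kept their call. The 12 members called higher with library totals alone were Atg101, Pik3c3, Rubcn, Wipi2, Atg2a, Atg4b, Atg5, Atg7, Atg10, Map1lc3a, Gabarap and Pink1. Relative to the median of all genes, 30 of 39 members lay below it with TMM factors and 31 of 39 with library totals.

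The 5 genes of the ULK complex, which receives nutrient signals and starts autophagosome formation, gave 3 lower members. Ulk1, the kinase that phosphorylates the complex that follows, stood at 112, 107, 40.6, 53.3 and 58.3 CPM in the 5 PF livers. In the 7 AF livers Ulk1 ranged from 31.6 to 53.5 CPM with a median of 43.4. PF replicates 1 and 2 lay far above the other PF livers, and only 2 of the 7 AF livers fell below all PF livers. The log2 fold change of Ulk1 was -0.78 (SE 0.232, edgeR adjusted p = 0.0174), and it was no longer past the threshold without PF replicate 1 (-0.59, adjusted p = 0.0549) or without PF replicate 2 (-0.61, adjusted p = 0.0581). With library totals it was -0.42 with an adjusted p of 0.114.

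Ulk2, the paralog of Ulk1, is described because its groups did not overlap, a choice made after its values were seen. It measured 98.4 to 114 CPM in PF and 60.9 to 87.5 CPM in AF livers (log2 fold change -0.55, SE 0.0936, edgeR adjusted p = 0.000843; -0.19 with library totals, not past the threshold). The AF mean of Ulk2 was 68.4% of the PF mean. Rb1cc1, which encodes the scaffold FIP200, was lower by a small margin (-0.27, adjusted p = 0.0272; 0.082 with library totals, adjusted p = 0.509), and it lost its call in 9 of the 21 alternatives, 6 of them with 1 library left out. The scaffold partners Atg13 (-0.11) and Atg101 (0.10) did not pass the test, with 95% intervals of -0.41 to 0.20 and -0.26 to 0.45.

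Among the 6 genes of the class III phosphatidylinositol 3-kinase complexes, Atg14 showed the largest change of all members with TMM factors. Atg14 directs the kinase to the site where autophagosomes form, and it measured 30.8, 43.6, 18.8, 34.0 and 32.0 CPM in the PF livers. In AF livers it ranged from 12.7 to 18.3 CPM with a median of 15.2. At these TMM-scaled levels all 7 AF livers were below all PF livers, although PF replicate 3 was only just above the highest AF liver. Mean levels were 31.8 ± 8.86 CPM in PF (SD, n = 5) and 15.2 ± 1.89 CPM in AF livers (SD, n = 7), a 2.10-fold lower level (log2 fold change -1.07, SE 0.162, edgeR adjusted p = 0.00039). It stayed between -1.22 and -0.71 over all 21 alternatives. Atg14 lies on chromosome 14 (47540893 to 47570649, GRCm38, minus strand), and Gm6616 and Gm49004 overlap it on the opposite strand. Whether the counting used strand was not given in the sources used here, so reads of such overlapping genes may not be told apart.

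Uvrag, whose product replaces Atg14 in a second form of the kinase complex that acts on endosomes, was lower by less (-0.24, adjusted p = 0.0308), and so was Pik3r4, the regulatory subunit Vps15 (-0.22, adjusted p = 0.0401). Both lay above 0 with library totals (0.11 for Uvrag and 0.16 for Pik3r4, neither past the threshold), and Pik3r4 lost its call in 13 and Uvrag in 8 of the 21 alternatives. The catalytic subunit Pik3c3 (0.00, 95% interval -0.18 to 0.19) and the scaffold Becn1 (-0.14, -0.30 to 0.03) did not pass the test. Rubcn, an inhibitor that acts on the Uvrag form, did not pass it either (0.18, -0.08 to 0.45).

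The ratio of Atg14 to Uvrag counts within a library does not depend on how libraries are scaled. As log2 values it was -0.44, 0.11, -0.89, -0.20 and -0.04 in the PF livers and ranged from -1.39 to -0.89 in the AF livers. PF replicate 3 stood among the AF values. The group means differed by -0.79 (exact two-sided permutation test over 792 splits, p = 0.00253, and 0.0202 after Benjamini-Hochberg adjustment over 8 pairs of members). By group medians the difference was -0.84 and did not pass (adjusted exact permutation p = 0.101). The 8 pairs were chosen with earlier results of these data known, so these p-values are not independent of the change in Atg14. Genes on the opposite strand overlap both Atg14 and Uvrag, so their reads may enter this ratio.

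**Figure D2:**
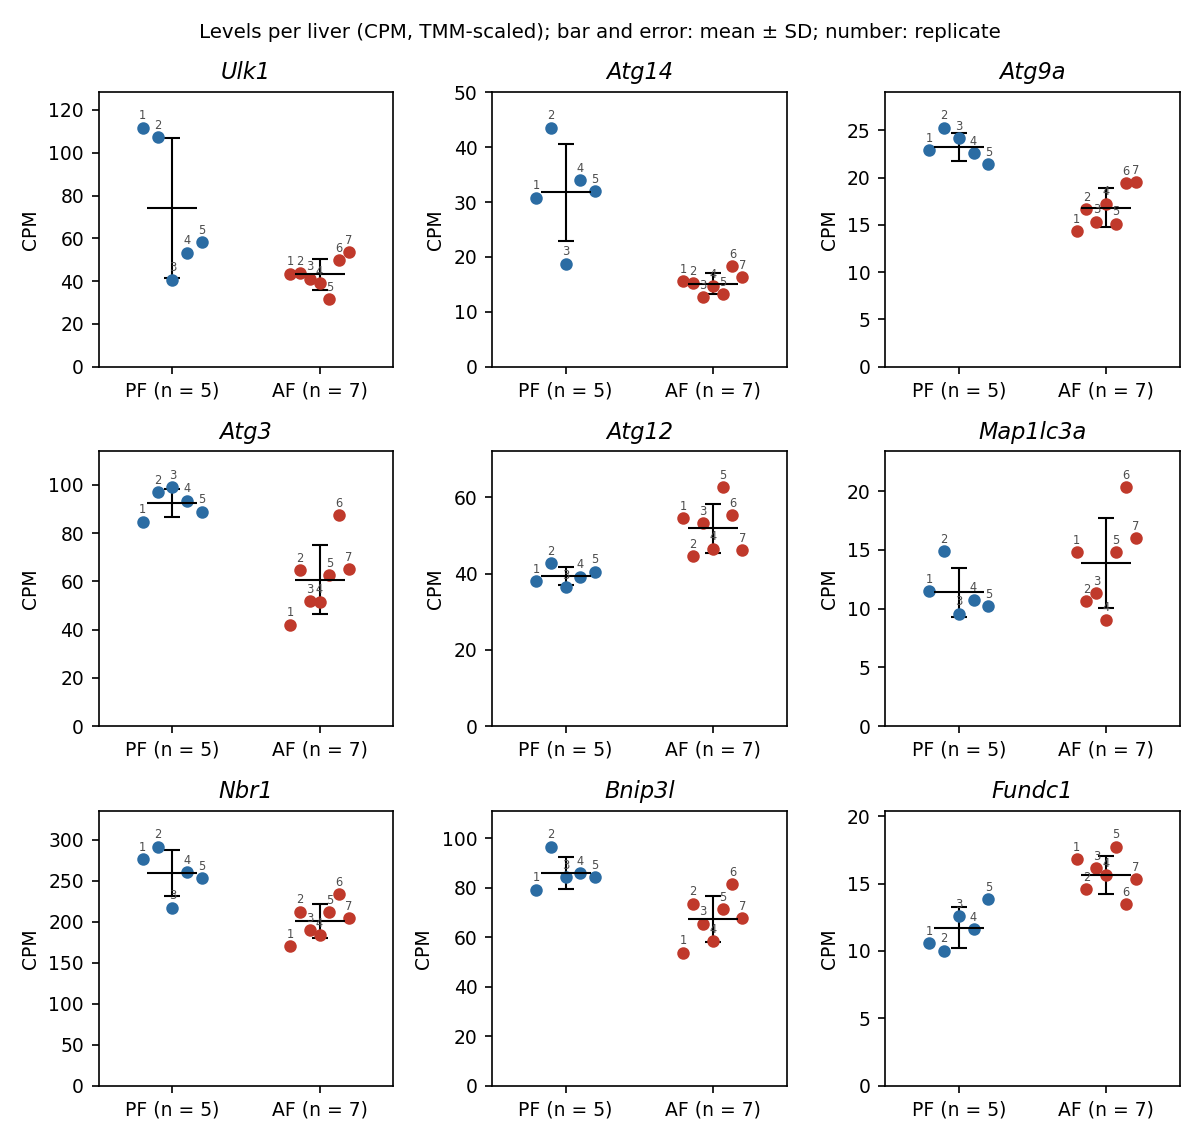
CPM (y axis) of the members described liver by liver, with 1 point per liver, its replicate number above it, and a bar with whiskers at each group's mean ± SD. The AF livers of Atg14 sit between 12.7 and 18.3 CPM, below the 18.8 CPM of the lowest PF liver, while for Map1lc3a the groups lie across each other.

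Membrane expansion gave 2 lower members of 5. Atg9a, the membrane protein of the vesicles that seed the growing membrane, measured 22.9, 25.3, 24.1, 22.6 and 21.4 CPM in PF livers. AF livers ranged from 14.3 to 19.5 CPM with a median of 16.6, and no AF liver reached the PF range. Atg9a had a log2 fold change of -0.47 (SE 0.0934, edgeR adjusted p = 0.00206) and of -0.12 with library totals (not past the threshold). Gm29253 on the same strand and Ankzf1 on the opposite strand overlap Atg9a, which makes its level uncertain to that extent. Such overlap was common, with 20 members overlapping another gene and 6 of them a gene on the same strand. Besides Atg14 and Atg9a, the members past the threshold with an overlap were Rb1cc1, Pik3r4, Uvrag and Atg2b, all on the opposite strand. Same-strand overlaps also involved Atg5, Atg7, Atg16l1, Map1lc3b and Pink1, which did not pass the test with TMM factors.

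Atg2b, which bridges the endoplasmic reticulum and the growing membrane and moves lipid between them, was lower without overlap of the groups (43.4 ± 2.38 CPM in PF and 32.6 ± 2.57 CPM in AF livers, SD, n = 5 and 7; log2 fold change -0.41, edgeR adjusted p = 0.00116; -0.054 with library totals, not past the threshold). Its paralog Atg2a did not pass the test (0.05, 95% interval -0.26 to 0.36). The log2 ratio of Atg2a to Atg2b was higher in AF by 0.45, which did not pass after adjustment over the 8 pairs (exact permutation p adjusted to 0.0606). The lipid-binding proteins Wipi1 (-0.22, adjusted p = 0.0993) and Wipi2 (0.05, adjusted p = 0.733) did not pass the test.

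The conjugation system gave 3 lower members, 1 higher member and 6 that did not pass. Atg3, the E2-like enzyme that joins Atg8 proteins to phosphatidylethanolamine, measured 84.8, 97.0, 99.0, 93.5 and 89.0 CPM in PF livers. In AF livers it ranged from 42.0 to 87.3 CPM with a median of 62.7. Only AF replicate 6 reached the PF range, and the other 6 AF livers were below it. The log2 fold change of Atg3 was -0.61 (SE 0.146, edgeR adjusted p = 0.00576) and stayed past the threshold with library totals (-0.29, adjusted p = 0.0203). Atg3 lies on chromosome 16 (45158785 to 45188538, GRCm38, plus strand), with no overlapping gene.

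Atg12, the ubiquitin-like protein that is joined to Atg5, went the opposite way. It measured 38.0, 42.8, 36.4, 39.2 and 40.5 CPM in PF livers and 44.6 to 62.6 CPM in AF livers, with a median of 53.3. All 7 AF livers lay above all PF livers. The log2 fold change was 0.40 (SE 0.0936, edgeR adjusted p = 0.00531) and 0.77 with library totals (adjusted p = 0.0011).

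The proteases Atg4a (-0.37, adjusted p = 0.00859) and Atg4c (-0.31, adjusted p = 0.0309), which trim Atg8 proteins before conjugation, were lower in AF. Atg4a lost its call with library totals alone (-0.024), and Atg4c lost it in 10 of the 21 alternatives, library totals included (0.066). Their relatives Atg4b (0.03) and Atg4d (-0.19) did not pass the test. Atg16l1, which places the Atg12 and Atg5 conjugate on the membrane, did not pass (-0.30, adjusted p = 0.0503), and it passed in 7 of the 21 alternatives, among them DESeq2 and limma-voom. The conjugation partner Atg5 (0.02, 95% interval -0.21 to 0.25), the E1-like enzyme Atg7 (0.17, -0.28 to 0.61) and the second E2-like enzyme Atg10 (0.12, -0.15 to 0.39) did not pass it.

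Atg7 and Atg4b, chosen after their values were seen, each had a narrow PF range with 4 AF livers below it and 3 above it. For Atg7, PF livers lay between 28.8 and 30.5 CPM. The AF livers below this range went down to 21.3 CPM, and those above it were at 44.7, 46.4 and 45.4 CPM in replicates 2, 6 and 7. With library totals Atg7 (0.47, adjusted p = 0.0153) and Atg4b (0.38, adjusted p = 0.00619) were called higher.

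**Figure D3:**
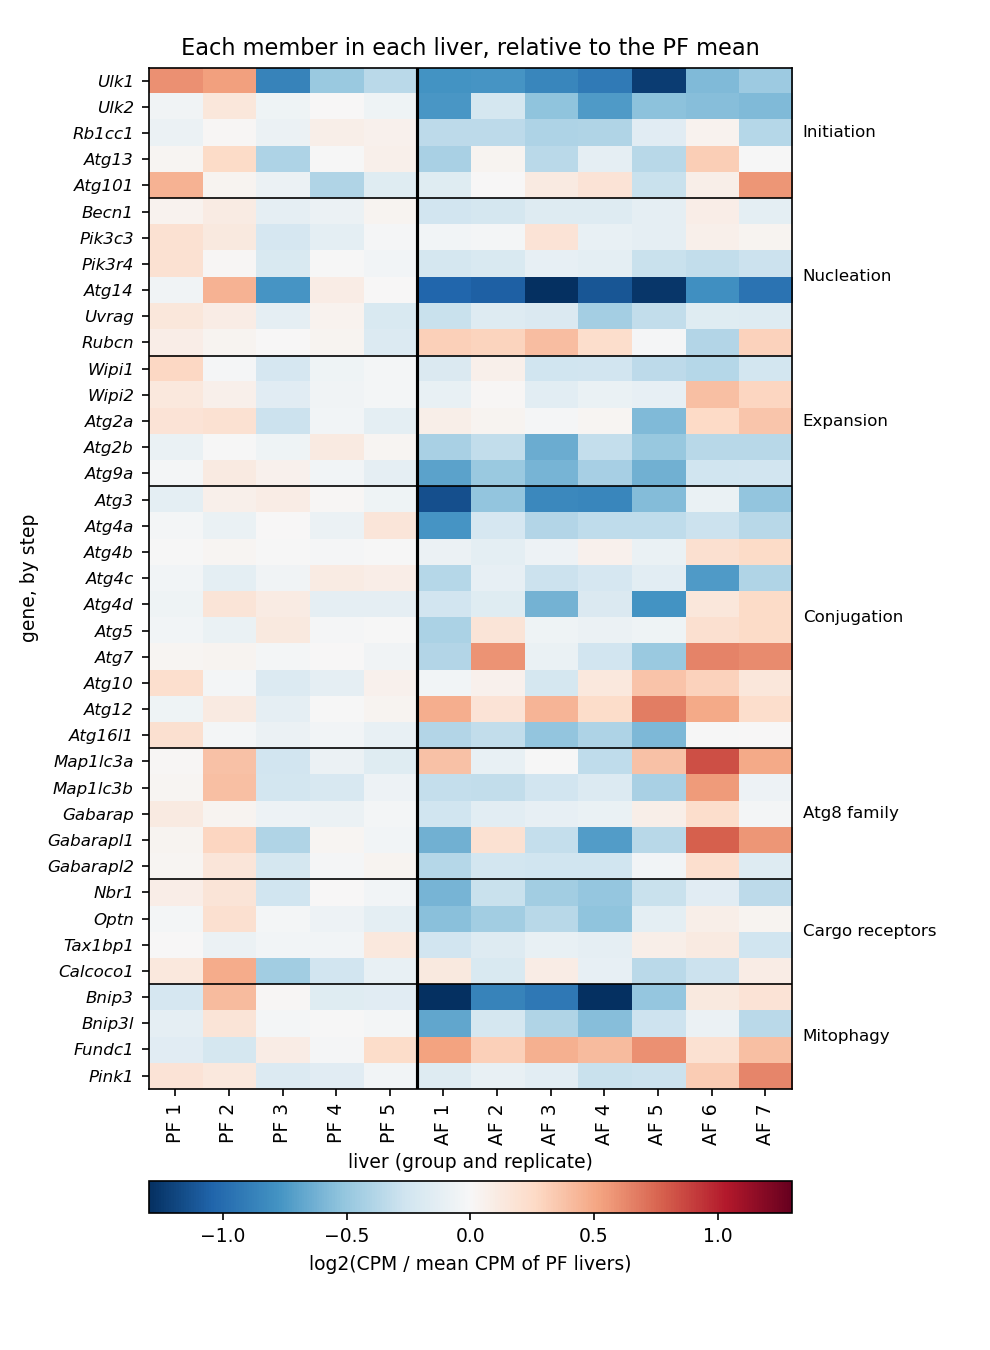
Log2 CPM of each member (rows, by step) in each of the 12 livers (columns) relative to the PF mean, with blue for lower and red for higher (values past an end of the colour bar take the end colour). AF replicate 6, with a median of 0.08 over the members, and AF replicate 1, with a median of -0.31, mark the ends of the AF livers.

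No member of the Atg8 family passed edgeR's test, none of the 5 had an unadjusted p under 0.05, and none passed with DESeq2 or limma-voom. These proteins line the autophagosome and bind cargo receptors, and Gabarapl1 and Gabarap had the highest levels of all members per length, at 155 and 150 CPM per kb of exon in PF and 160 and 146 in AF livers. Map1lc3a, with the smallest p of the family, measured 11.5, 14.9, 9.59, 10.8 and 10.2 CPM in PF livers and 9.07 to 20.3 CPM in AF livers, with a median of 14.8. The groups of Map1lc3a overlapped (log2 fold change 0.28, SE 0.188, edgeR adjusted p = 0.244), although it was called higher with library totals (0.63, adjusted p = 0.0087). Map1lc3b was at -0.11 (95% interval -0.47 to 0.26), Gabarap at -0.04 (-0.25 to 0.18), Gabarapl1 at 0.04 (-0.52 to 0.59) and Gabarapl2 at -0.15 (-0.37 to 0.08). Gabarap was called higher with library totals (0.31, adjusted p = 0.0127).

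The interval of Gabarapl1 was the widest of the family, and its AF livers were taken up after its values were seen. They ranged from 188.6 to 536.7 CPM with a median of 252, against 238 to 380.5 CPM in PF livers. AF replicates 6 and 7 stood above the PF range, and AF replicates 1 and 4 below it. The log2 ratio of Map1lc3a to Map1lc3b was higher in AF by 0.38 and did not pass after adjustment over the 8 pairs (exact permutation p adjusted to 0.0976). The ratios of Gabarapl1 to Gabarapl2 (0.10) and to Map1lc3b (0.07) differed by less than their spread over livers (adjusted exact permutation p = 0.727 for each).

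Among the 4 soluble cargo receptors, Nbr1 was lower. Nbr1 links ubiquitin-tagged proteins and peroxisomes to Atg8 proteins and measured 276, 291, 217, 260.2 and 253 CPM in PF livers. In AF livers it ranged from 170.2 to 233 CPM with a median of 204. AF replicate 6 overlapped the PF range, and the other 6 AF livers were below it. For Nbr1 the log2 fold change was -0.37 (SE 0.104, edgeR adjusted p = 0.0133) and -0.020 with library totals, where it was not called. Optn (-0.25, adjusted p = 0.126) and Tax1bp1 (-0.09, adjusted p = 0.432), receptors for ubiquitin-tagged cargo, did not pass the test, and neither did Calcoco1 (-0.07, adjusted p = 0.718), a receptor for endoplasmic reticulum.

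Of the 4 mitophagy genes, Fundc1 was higher, Bnip3l was lower and the other 2 did not pass the test. Fundc1, a receptor in the outer mitochondrial membrane, measured 10.6, 10.02, 12.6, 11.6 and 13.8 CPM in PF livers and 13.5 to 17.7 CPM in AF livers, with a median of 15.6. AF replicate 6 fell within the PF range and the other 6 AF livers lay above it. Fundc1 had a log2 fold change of 0.42 (SE 0.101, edgeR adjusted p = 0.00628) and of 0.79 with library totals (adjusted p = 0.0026). Fundc1 lies on the X chromosome (17556564 to 17572325, GRCm38, minus strand), with no overlapping gene.

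Bnip3l, the receptor known as Nix, measured 79.2, 96.5, 84.3, 85.8 and 84.2 CPM in PF livers and 53.8 to 81.3 CPM in AF livers, with a median of 67.6. Only AF replicate 6 reached into the PF range. Its log2 fold change was -0.35 (SE 0.102, edgeR adjusted p = 0.0153) and -0.010 with library totals, where it was not called. Pink1, the kinase that marks depolarized mitochondria, did not pass the test (0.04, 95% interval -0.31 to 0.39), and with library totals it was called higher (0.37, adjusted p = 0.0189).

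Bnip3, the paralog of Bnip3l and a receptor induced by hypoxia, had a larger fitted change than Bnip3l but did not pass the test (-0.54, SE 0.265, edgeR adjusted p = 0.119). It is described because of its spread, a choice made after its values were seen. PF livers measured 161, 250.6, 190.3, 168 and 169.6 CPM. AF replicates 6 and 7 stood at 205 and 213 CPM, within the PF range, while the other 5 AF livers were at 76.2 to 132 CPM, below it. Bnip3 passed the threshold without AF replicate 6 (-0.69, adjusted p = 0.0392) or without AF replicate 7 (-0.70, adjusted p = 0.0364). The log2 ratio of Bnip3 to Bnip3l differed by -0.28 between the groups (exact permutation p adjusted to 0.398), with AF values from 0.38 to 1.66 around PF values from 0.97 to 1.38.

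**Figure D4:**
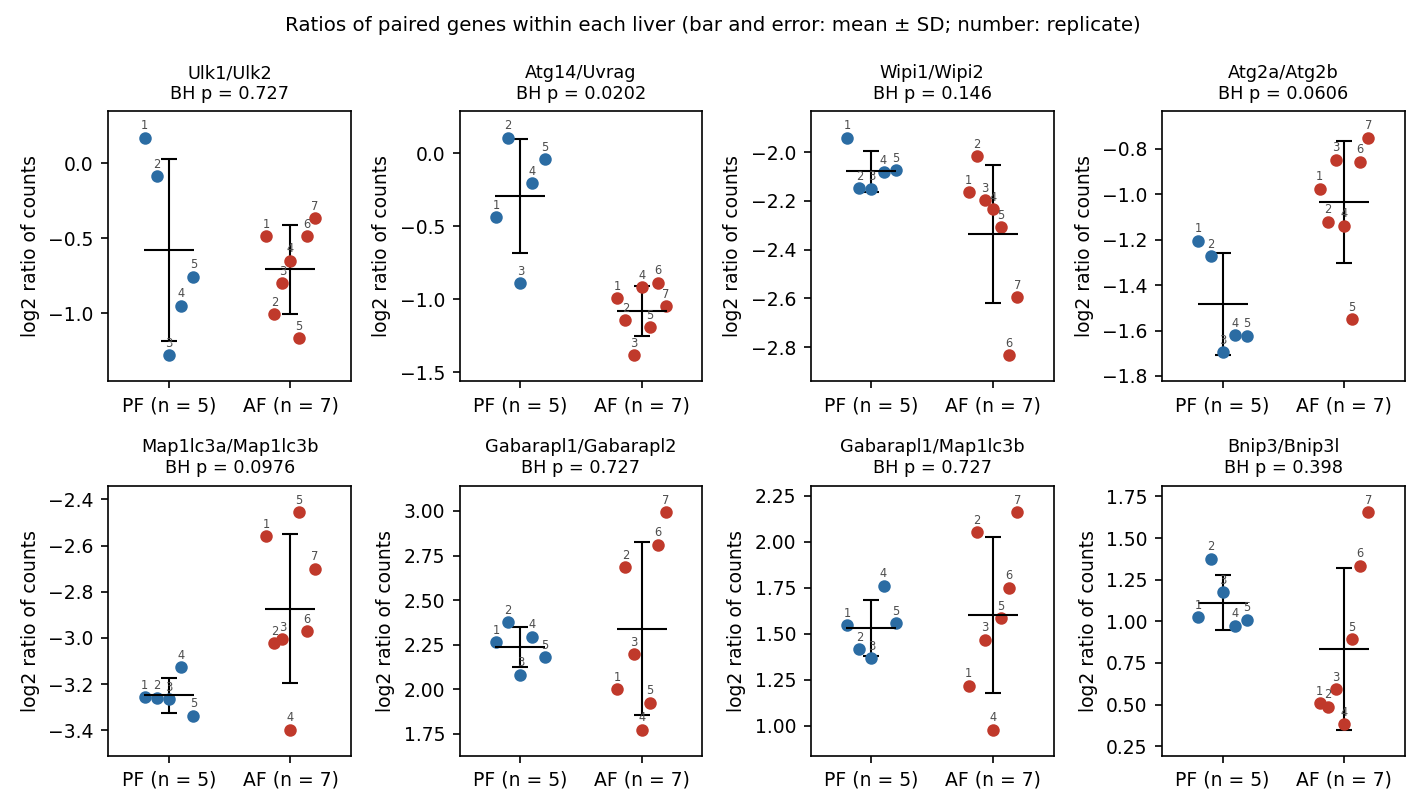
Log2 ratio of the counts of 2 members in the same liver (y axis) for 8 pairs, with 1 point per liver, its replicate number above it and a bar with whiskers at each group's mean ± SD. Atg14/Uvrag, with a difference of -0.79, is the pair that passed after adjustment when group means were compared, and the AF livers of Bnip3/Bnip3l spread from 0.38 to 1.66.

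The AF livers differed in how many of the 13 lower members lay below every PF liver. The number was 13 in AF replicate 5, 12 in replicates 1 and 4, 11 in replicate 7, 10 in replicates 2 and 3, and 7 in replicate 6. AF replicate 6 was below the PF mean for 12 of the 13. These members were selected as lower in the same livers, and the count was not made over all genes. It therefore does not show a trait particular to the pathway. AF replicate 6 had a TMM factor of 0.880, within the PF range of 0.832 to 0.901. It had 19078 genes with a count, against 18686 to 19507 in PF livers. Without AF replicate 6, Becn1, Rubcn, Atg16l1, Optn and Bnip3 were gained and Pik3r4 was lost.

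The genes around the core were counted in 4 further lists of the pathway, with 71 of 72 genes tested. Of these 10 were higher and 12 were lower, or 14.1% and 16.9%, against 22.0% and 17.8% of all genes. With library totals all 10 of the former and 6 of the latter kept their call. Deptor (-0.11), Tmem41b (-0.39), Tollip (-0.081), Sec62 (-0.012), Rraga (0.11) and Snap29 (0.011) lost theirs, the last 2 with a turned sign. In that fit 36 of the 71 genes were higher and 6 lower, where 45.6% and 6.62% of all genes were. With TMM factors and each library left out in turn, 6 to 10 were higher and 10 to 17 lower. Among 27 genes of nutrient and transcriptional control, 6 rose and 5 fell. Rragd, a Rag GTPase that brings mTORC1 to the lysosome, rose from 3.81 ± 1.36 to 23.2 ± 7.99 CPM (SD, n = 5 and 7; log2 fold change 2.61, edgeR adjusted p = 6.76e-05). Foxo3, a transcription factor that induces autophagy genes, fell from 64.5 ± 13.2 to 33.8 ± 3.81 CPM (log2 fold change -0.93, edgeR adjusted p = 0.000254). The others that rose were Sesn2 (0.99), Mitf (0.58), Prkab1 (0.55), Mtor (0.34) and Tfe3 (0.31), and the others that fell were Foxo1 (-0.73), Tsc1 (-0.69), Deptor (-0.44) and Rraga (-0.24).

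Of 13 tested partners of the core complexes, 1 rose and 3 fell. Bcl2, which binds Beclin, rose (0.89, edgeR adjusted p = 0.0401), while Atg16l2, a relative of Atg16l1, fell from 16.5 ± 1.85 to 5.67 ± 1.5 CPM (-1.55, adjusted p = 4.37e-05), followed by Trp53inp2 (-0.91) and Tmem41b (-0.76). Atg9b, at 0.344 CPM or less in every liver, was removed by the filter on low counts. Of 14 genes of fusion with the lysosome, Vps18 rose (0.48) and Rilp (-0.79) and Snap29 (-0.34) fell. Of 17 other receptors and regulators of selective autophagy, Fundc2 (0.61) and Tex264 (0.54) rose and Tollip (-0.42) and Sec62 (-0.36) fell.

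The RNA came from whole liver, so fewer cells of a type and less RNA per cell cannot be told apart. Defining markers of hepatocytes were present in every library, with a sum over 7 of 8 listed genes matched of 101510 to 142354 CPM in PF and 56583 to 106178 CPM in AF livers, and 2 of the 7 were lower. Markers of macrophages summed to 1014 to 1581 CPM in PF and 1892 to 5094 CPM in AF livers, with 8 of 9 higher. Stellate cell and fibroblast markers summed to 69.0 to 164 and 138 to 588 CPM with 6 of 8 higher, and bile duct markers to 49.5 to 244 and 70.3 to 1090 CPM with 4 of 5 higher. Sinusoidal endothelium summed to 112 to 245 and 152 to 249.5 CPM with 1 of 5 higher, neutrophil markers to 52.3 to 742 and 45.5 to 168 CPM, and T and B lymphocyte markers to 7.18 to 15.1 and 3.11 to 6.93 CPM with 1 of 8 lower. Most of the bile duct sum was Spp1 (mean 126 CPM in PF and 404 CPM in AF livers), which did not pass (edgeR adjusted p = 0.0635). Most of the hepatocyte sum was Alb (mean 89801 CPM in PF and 59186 CPM in AF livers), which did not pass either (edgeR adjusted p = 0.164). All 22 calls among the listed markers held with library totals, and no marker was at 0 counts in any library. The part of these cell types in the members' differences was not tested.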

How the data were processed

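Whole liver mRNA of 5 PF and 7 AF mice was sequenced after poly-A enrichment with a stranded kit, and the counts that the authors deposited are unnormalized numbers of reads on each Ensembl gene. The submitters' processing notes name FastQC 0.10.1, TopHat2 2.0.13, HTSeq 0.10.0 and GRCm38. The annotation and the strand setting of counting were not given in the sources used here. Columns were assigned to samples by group and replicate number. The labels give separate samples of a group, so p-values measure the spread between these samples. Depth was 24129900 to 28594027 counts in PF and 25099033 to 30578639 in AF libraries, and members had 124 to 14417 counts per library. The 31 pairs of libraries within a group differed by at least 21.1 times counting noise.

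Counts were filtered with filterByExpr by group, scaled with TMM and tested in R 4.3.3 with edgeR 4.0.16 (quasi-likelihood test, no covariate, Benjamini-Hochberg adjustment over 14168 genes, threshold 0.05). The study's Cuffdiff2 test works on reads and was not run. Ratios of 2 members used log2 of counts plus 0.5 and an exact permutation test over 792 splits, for which the smallest p is 0.00126. Alternatives were DESeq2 1.42.0, limma-voom (limma 3.58.1), RLE and upper-quartile scaling, library totals, filters of 1 count in any library and of a mean of 10 counts, the replicate number as a block, and each library left out in turn. A GC and length offset was added after the data had been seen. The steps were tested on simulated counts with 200 genes changed. These counts were drawn with the TMM-scaled library sizes, so they could not test the choice of scaling.

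The members, lists and pairs were chosen with earlier results of these data known. Every member past the threshold is named. In each step the largest change in each direction past the threshold (or, with none, the smallest p) is given liver by liver. In the other lists the largest changes are named.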

Additional observations from a re-analysis of the deposited data

Results flagged for a closer look

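In 94 groups of livers (the 39 members and the 8 ratios, in PF and AF separately), the highest or lowest liver was compared with its nearest neighbour by Dixon's 95% limit. The limit was passed 9 times, where chance alone gives about 4.7. In the PF livers, replicate 2 was the highest for Ulk2 (114 CPM, against 98.4 to 103 in the others), Atg4b (28.5 CPM, against 27.6 to 27.8) and Optn (98.9 CPM, against 78.1 to 84.2). PF replicate 1 was the highest for Atg16l1 (36.5 CPM, against 29.4 to 30.97). In the AF livers, replicate 6 was the highest for Becn1 (67.6 CPM, against 53.5 to 59.0) and Map1lc3b (159.5 CPM, against 81.3 to 104). AF replicate 2 was the highest for Ulk2 (87.5 CPM, against 60.9 to 71.6) and Wipi1 (17.1 CPM, against 12.6 to 14.3). AF replicate 1 was the lowest for Atg4a (10.4 CPM, against 13.5 to 15.2).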

How the results depend on the processing

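Direction and call of Atg14, Atg3, Atg12 and Fundc1 held under all 21 alternatives. With library totals in place of TMM factors, 14 members were higher and 2 lower, 36 and 6 of the other pathway genes were higher and lower, and the sign turned for 15 members. Of these, Rb1cc1 (0.082), Pik3r4 (0.16), Uvrag (0.11), Atg4c (0.066) and Gabarap (0.31) were called in either fit and the other 10 in neither. TMM factors take most genes as unchanged, which these counts alone cannot test. The share of calls that were higher was 55.3% with TMM factors and 87.3% with library totals. With each library left out in turn, 4642 to 6497 genes passed, with 2 to 3 members higher and 9 to 16 lower. The other pathway genes gave 6 to 10 higher (6 without PF replicate 2, 4 or 5 or AF replicate 2) and 10 to 17 lower. Left-out differences of log2 ratios ran from 0.40 to 0.54 for Atg2a/Atg2b, which passed without PF replicate 1 or 2 or AF replicate 5, from 0.31 to 0.46 for Map1lc3a/Map1lc3b, which passed without AF replicate 4, and from -0.94 to -0.69 for Atg14/Uvrag. By group medians Atg14/Uvrag differed by -0.84 and did not pass (exact permutation p adjusted to 0.101). The replicate numbers gave correlations of -0.0749 to 0.117 between same-numbered libraries, with 2 of 5 over 0.1 and 1 of 5 best with its own number, so they share only a number. With the replicate block AF replicates 6 and 7 have no partner and do not enter the contrast, so these values hold both changes at once. In that fit 6335 genes passed, 3 members were higher and 15 lower (Pik3r4 and Atg4c lost, and Rubcn, Atg4d, Atg16l1, Optn and Bnip3 gained, Bnip3 at -0.96 with an edgeR adjusted p of 0.00174). Atg14/Uvrag then differed by -0.83 over 5 pairs (adjusted exact permutation p = 0.167), where the smallest p that 5 pairs allow is 0.0625. The offset for GC content and length, chosen after seeing the data, lost Rb1cc1, Atg4c and Bnip3l and gained Wipi1, Atg10, Optn and Calcoco1. The causes of these shifts were not tested.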
